A study of Mus musculus with 4 samples.

Results

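The 10 core circadian clock genes Clock, Arntl, Per1, Per2, Per3, Cry1, Cry2, Nr1d1, Nr1d2 and Dbp were described from ATAC-seq of LβT2 cells, a mouse line of gonadotropes, the pituitary cells that make gonadotropins. In ATAC-seq a transposase cuts open DNA, so a stretch of genome with many reads is accessible. The members were chosen by name: every called peak to which the authors' annotation gave 1 of these 10 gene names was taken. They held 119 of the 417506 peaks in the lists of the 4 libraries, and the lists named 35667 genes in all. Peaks of different libraries that overlapped were merged, which gave 55 clock gene regions of 255101.

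Of the libraries, 2 were from cells given vehicle and 2 from cells given activin A at 1 nM, a ligand of the TGFβ family that signals through SMAD proteins. Both groups were LβT2 cells with no stated genetic change, and all 4 sample titles write the name as LbT2b. The cells were kept in serum-free medium from the day before and treated for 6 h. No label states the cells' circadian phase or any step to synchronise them. High-quality autosomal reads numbered 172146474 to 224226184 per library. Vehicle library 2 stood apart from the rest, with 178358 peaks against 70692 to 85112, and with 11.1% of its reads in peaks against 6.93 to 8.73%. Enrichment of reads at start sites was lower in the vehicle libraries (2.72 and 2.48) than in the activin libraries (3.12 and 3.04), so this measure of library quality moved with treatment. Of 5 gonadotrope markers with a listed start site, Lhb, Cga, Gnrhr and Foxl2 had it under a region called in all 4 libraries, whereas the start site of Fshb was under no peak in any library. Of 5 markers of other pituitary lineages with a listed start site, none had such a region, and Prl, Tshb, Pou1f1 and Tbx19 had none in any library. Nothing in the labels says that the libraries of a group came from separate cultures, so p-values measure only the spread between these libraries.

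The circadian clock is a feedback loop of transcription. CLOCK and ARNTL (also called BMAL1) bind as a pair to E-boxes and activate the Per, Cry, Nr1d and Dbp genes. PER and CRY proteins return to the nucleus and inhibit that pair, the nuclear receptors NR1D1 and NR1D2 (REV-ERBα and REV-ERBβ) repress Arntl through ROR elements, and DBP activates genes with D-boxes. The pituitary has such clocks, and in gonadotrope cells gonadotropin-releasing hormone is known to induce Per1.

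Every clock gene had an accessible start site in both treatments. A region called in all 4 libraries covered a RefSeq start site of 10 of the 10 genes, against 52.3% of the 17492 protein-coding genes of the RefSeq promoter table. Per1 had 3 such regions, and each other gene had 1, which made 12 start-site regions. All 12 were strong by the −log10 of the authors' q-value, which gives the significance of a peak over background and not its height. It lay between 7.14 and 89.9 in every library. Of the other 43 clock gene regions, 4 were called in all 4 libraries, near the share of all merged regions (11.7%).

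The sequences just before the start sites show what these open windows hold. They are given for genes with a match to a clock element, for Nr1d2, which had the highest read density at its start, and for Arntl. The Arntl window was dense in another element. Each sequence is the 250 bases before a start site on the gene's own strand, from RefSeq (GRCm38.p6), the build of the deposited coordinates. Capitals mark a match on either strand to the E-box CACGTG, the E-prime box CACGTT (read AACGTG on the other strand) or the D-box TTANGTAA. In the Arntl window they mark CCAAT, read ATTGG on the other strand.
Nr1d2, chr14:18239107-18239356, minus strand, no match: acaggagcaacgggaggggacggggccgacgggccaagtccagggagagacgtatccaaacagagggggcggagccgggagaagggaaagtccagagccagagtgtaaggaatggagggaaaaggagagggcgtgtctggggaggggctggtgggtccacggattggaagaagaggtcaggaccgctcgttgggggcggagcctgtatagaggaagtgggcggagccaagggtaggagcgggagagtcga
Cry1, chr10:85185055-85185304, minus strand, E-prime box then E-box: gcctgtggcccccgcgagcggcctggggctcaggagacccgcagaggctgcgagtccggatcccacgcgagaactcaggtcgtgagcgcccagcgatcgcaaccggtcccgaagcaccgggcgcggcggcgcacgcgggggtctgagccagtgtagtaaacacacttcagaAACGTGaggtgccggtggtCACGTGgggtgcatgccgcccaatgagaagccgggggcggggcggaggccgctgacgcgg
Per1, chr11:69098699-69098948, plus strand, E-box: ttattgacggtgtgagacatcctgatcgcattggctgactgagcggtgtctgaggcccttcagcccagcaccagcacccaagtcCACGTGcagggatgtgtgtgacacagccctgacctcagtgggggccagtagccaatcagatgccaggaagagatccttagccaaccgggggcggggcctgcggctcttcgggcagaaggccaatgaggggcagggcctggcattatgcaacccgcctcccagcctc
Cry2, chr2:92434070-92434319, minus strand, E-prime box: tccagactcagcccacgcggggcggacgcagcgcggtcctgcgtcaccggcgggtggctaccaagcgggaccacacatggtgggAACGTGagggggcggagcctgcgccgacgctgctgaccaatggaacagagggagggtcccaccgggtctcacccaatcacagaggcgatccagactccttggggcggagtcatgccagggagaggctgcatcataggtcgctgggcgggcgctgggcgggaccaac
Nr1d1, chr11:98775378-98775627, minus strand, E-prime box: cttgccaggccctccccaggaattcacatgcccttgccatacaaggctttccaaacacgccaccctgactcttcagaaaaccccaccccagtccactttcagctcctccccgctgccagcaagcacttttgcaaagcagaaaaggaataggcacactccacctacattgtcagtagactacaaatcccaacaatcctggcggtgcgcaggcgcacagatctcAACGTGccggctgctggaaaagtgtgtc
Per3, chr4:151044666-151044915, minus strand, 2 D-boxes: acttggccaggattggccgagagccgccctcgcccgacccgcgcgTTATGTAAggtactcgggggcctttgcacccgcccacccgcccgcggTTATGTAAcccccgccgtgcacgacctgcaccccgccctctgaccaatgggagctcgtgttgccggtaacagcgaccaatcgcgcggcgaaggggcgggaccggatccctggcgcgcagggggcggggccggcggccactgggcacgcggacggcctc
Arntl, chr7:113207215-113207464, plus strand, CCAAT: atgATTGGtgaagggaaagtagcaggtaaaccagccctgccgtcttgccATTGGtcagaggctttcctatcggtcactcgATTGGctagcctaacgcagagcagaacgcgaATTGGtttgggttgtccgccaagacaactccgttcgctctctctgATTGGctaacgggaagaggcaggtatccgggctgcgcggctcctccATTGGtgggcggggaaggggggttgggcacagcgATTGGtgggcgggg

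E-boxes or E-prime boxes stood in the windows of Per1, Cry1, Cry2 and Nr1d1, which are targets of the CLOCK and ARNTL pair. Neither box stood in the windows of Per3, Nr1d2 and Dbp, also targets, or in the other Per1 window searched. The first base of the E-box lay 166 bases before the Per1 start site and 60 before that of Cry1. The E-prime box began 79 bases before the start of Cry1, 166 before that of Cry2 and 28 before that of Nr1d1. Per3, a target of D-box factors such as DBP, held 2 D-boxes, 205 and 158 bases before its start. Of the 13 clock gene windows searched, 2 held the E-box, 3 the E-prime box and 1 the D-box. Among all 32851 windows of the same length in the table, 6.02% held the E-box, 3.85% the E-prime box and 2.06% the D-box. The 13 windows belonged to 9 of the 10 genes, since Per2 had no entry, and some windows of a gene overlap.

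All 7 of these matches lay under a called peak in all 4 libraries, so the same elements were accessible with vehicle and with activin. The windows end at the start site, so elements past it were not searched for. None of the 13 windows held the ROR element TAGGTCA (2.23% of all windows), the cAMP response element TGACGTCA (1.55%) or the palindromic SMAD element GTCTAGAC (0.167%). Only these exact letters were searched for, not variants of them. At such low shares 13 windows are too few to show a lack of any of them. These letters are a description of the window and no test of whether a factor binds there. CCAAT, looked for after the sequences had been seen, occurred 7 times in the Arntl window, the most found in any window. Only 3 of the 32851 windows held as many, 2 of them being overlapping windows of Arntl, while 33.8% of windows held at least 1. The Per1 and Per3 windows shown held 3 each and that of Cry2 held 2.

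Mean levels at the start sites ranged from 1.91 to 13.1 between genes, whereas the ratio of activin to vehicle at the 12 start-site regions ranged from 0.902 to 1.44. The level is given as density, that is, high-quality reads in the called interval, per kb and per 1000000 such reads in the library. No local background is taken off it, and most or least open here means by density. Nr1d2, the REV-ERBβ gene, was the most open, with densities of 12.6 and 10.7 with vehicle, against 15.4 and 13.9 with activin. Its mean of 13.1 stood at percentile 99.8 of the 8294 autosomal start-site regions called in all 4 libraries, and its peak ranked 51, 44, 60 and 82 by q-value in the 4 lists. Cry1, which encodes a repressor of CLOCK and ARNTL, was the least open, with 1.64 and 1.97 with vehicle, against 2.13 and 1.92 with activin. The Cry1 mean of 1.91 stood at percentile 15.2. The authors' fold (ratio over background) of the strongest start-site peak gave another order. Cry1 (3.5 to 3.75) was above Dbp (2.22 to 2.52) and Nr1d1 (2.97 to 3.64) in each library. It was below Nr1d2, Cry2, Arntl and Per3 in each. Cry2 (5.8 and 5.82) was above Nr1d2 (5.23 and 5.24) with activin. With vehicle Cry2 (4.35 and 4.39) was below Nr1d2 (5.37 and 5.25). The Cry1 window held 31 CpG dinucleotides, against a median of 6 over all windows. Among the clock gene windows the number ran from 7 (Nr1d1) to 40 (Clock), and Per3 held 33.

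Between these ends came Per1 (mean of its most open region 6.59), Cry2 (5.66), Dbp (5.52), Per2 (5.46), Arntl (5.14), Nr1d1 (5.09), Per3 (4.34) and Clock (3.83). Only 2 steps in this order were wider than the spread over libraries: the lowest Nr1d2 value (10.7) was above the highest of Per1 (7.31), and the lowest Clock value (2.78) was above the highest of Cry1 (2.13). All other neighbours overlapped over the libraries. Compared within each library, Per1 was above Cry2 in all 4. The other overlapping neighbours changed order between libraries, so their order is not resolved. Of these regions, 3 also cover the start of another RefSeq gene: Gm31862 at Nr1d1, Gm38529 at Per3 and Gm7467 at Clock.

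**Figure D1:**
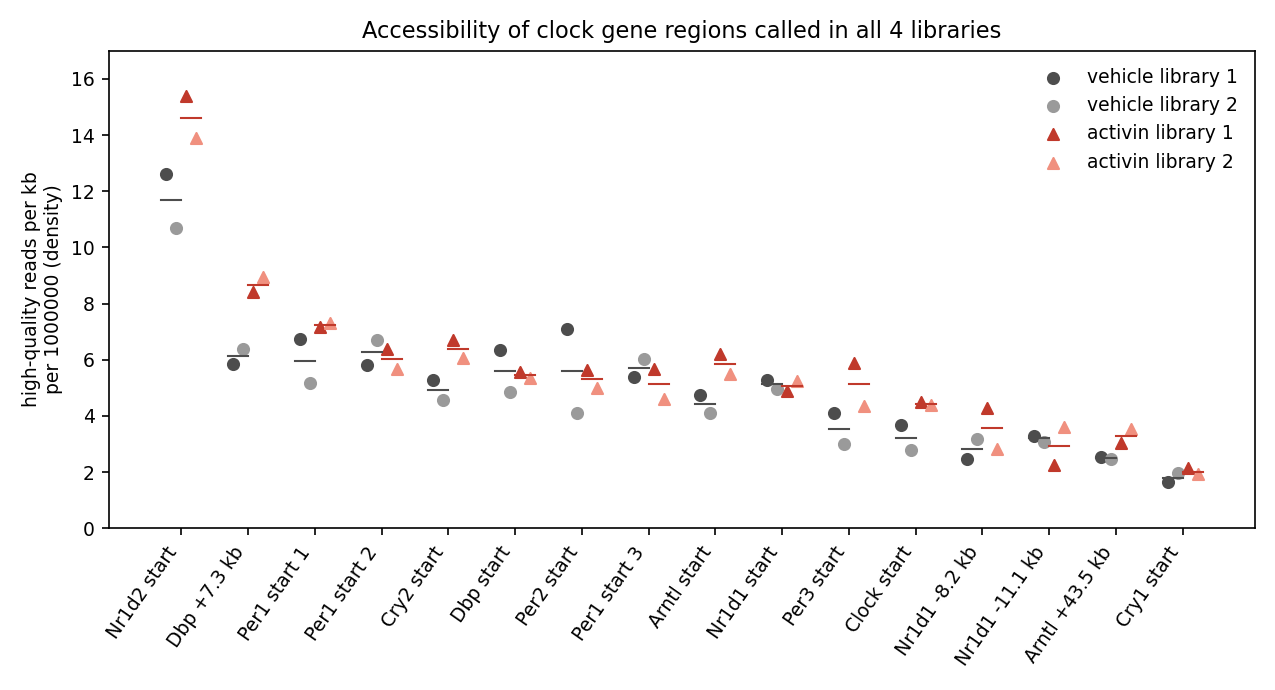
Density (reads per kb per 1000000 reads, high-quality reads only, linear axis from 0) at the 16 clock gene regions called in all 4 libraries, ordered by mean; points are libraries and lines are group means. Nr1d2 lies above every other start site in each library and Cry1 below them, and the groups overlap at 8 of the 16 regions.

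In the test of activin against vehicle no clock gene region passed the threshold. Regions with exactly 1 peak in each library, whose common part was at least 50% of their union, could be compared directly: there were 13871 over the genome and 10 at clock genes, 8 of these at start sites. Each library was centred on its median region and tested with limma, with Benjamini-Hochberg adjustment over all 13871 and a threshold of 0.05. The test called 0 of the 13871 regions (0%) and 0 of the 10 clock gene regions, whose smallest adjusted p was 0.487. At an unadjusted p under 0.05 there was 1 clock gene region of 10, against 9.53% of all shared regions, which is close to the same share (7.55% of shared start-site regions). A density is an average over the cells of a library, so more cells with an open site and a site more open in each cell cannot be told apart.

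Before centring, the activin densities both exceeded the vehicle densities at 8 of these 10 clock gene regions, and both fell short of them at 0. That was also so of 62.2% of all shared regions (3.73% were lower), and start-site enrichment moved the same way. Its part in the result was not tested. After centring, 4 of the 10 were higher in both activin libraries and 1 was lower, against 20.9% and 20.5% of shared regions. The log2 change was above 0 at 8 of the 10, against 48.9% of shared regions and 59% of shared start-site regions. Without division by interval length it was above 0 at 5 of the same 10, against 48% of shared regions. Its median over the 10 was 0.11, beside 0 for all shared regions and 0.03 for the 6436 shared start-site regions. Over the 8 start-site regions alone it was 0.08, and without length division the median over the 10 was 0.01. With each library scaled to its high-quality total and not to the median region, the medians were 0.38 for the 10, 0.27 for all shared regions and 0.31 for those at start sites, and limma then called 605 of 13871 regions (4.36%), the Per3 start among them. Leaving out vehicle library 2 kept the median at 0.10 and called 0 regions. The values of single regions moved more.

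The significance of peaks in the authors' lists moved the same way over the genome. At 10 of the 16 clock gene regions called in all 4 libraries the −log10 q was above both vehicle values in both activin libraries, and at 1 it was below them. Of all regions called in all 4 libraries, 56.8% were above and 5.44% below, and of start-site regions 75.3% were above. These values come from separate lists and were not tested.

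Neither activator gene passed the test. Clock encodes the DNA-binding partner of ARNTL. Its start-site region (chr5:76303567-76305372) had densities of 3.67 and 2.78 with vehicle, against 4.49 and 4.38 with activin, or 3.22 ± 0.628 and 4.43 ± 0.0772 (SD, n = 2). The groups did not overlap, and the −log10 q was also higher with activin (26.1 and 21.6) than with vehicle (18.0 and 12.0). Relative to the median region the log2 change was 0.20 ± 0.11 (SE), which did not pass (limma, adjusted p = 0.585). It was 0.31 without vehicle library 1 and 0.09 without vehicle library 2.

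Arntl encodes the other protein of the activating pair, without which the clock stops. At its start (chr7:113206756-113208491) densities were 4.73 and 4.12 with vehicle, against 6.22 and 5.49 with activin, again with no overlap. The log2 change was 0.13 ± 0.09 (limma, adjusted p = 0.667), and it was −0.17 when reads were not divided by the length of the interval. It ranged from 0.08 without activin library 1 to 0.18 without activin library 2. A second Arntl region in all 4 libraries lay in intron 2 of 19, 43.5 kb past the start (chr7:113250612-113251348). There the −log10 q was 5.79 and 5.09 with vehicle, against 16.3 and 13.8 with activin, while the densities were 2.54 and 2.48 against 3.04 and 3.55. Its log2 change of 0.12 ± 0.13 did not pass (limma, adjusted p = 0.8), and the centred values of the groups overlapped. Leaving out activin library 2 turned it to −0.03, and it was 0.27 without activin library 1, 0.04 without vehicle library 1 and 0.19 without vehicle library 2.

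The Per genes, which encode the repressor's PER subunits, went different ways, none past the threshold. Per1, a gene that many signals induce at once, had 3 start-site regions. Its first (chr11:69094521-69095632) had densities of 6.73 and 5.18 with vehicle, against 7.15 and 7.31 with activin, and a log2 change of 0.02 ± 0.10 (limma, adjusted p = 0.973), with a sign that turned when vehicle library 2 (−0.08) or activin library 2 (−0.03) was left out. It was 0.12 without vehicle library 1 and 0.07 without activin library 1.

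The second Per1 region (chr11:69098616-69099163), the one with the E-box shown above, was the 1 clock gene region with an unadjusted p under 0.05, and it was lower with activin, as were 5.91% of all shared regions at that p. Its densities were 5.82 and 6.71 with vehicle, against 6.38 and 5.67 with activin, which overlap, with means of 6.27 ± 0.628 and 6.02 ± 0.505 (SD, n = 2). Against the median region, which was higher with activin, this came to a log2 change of −0.33 ± 0.13 (limma, adjusted p = 0.487), and both activin libraries were below both vehicle libraries once centred. Without vehicle library 1 the log2 change was −0.52 (limma, adjusted p = 0.16), without vehicle library 2 it was −0.14, and without division by interval length it was −0.09. The called intervals there were short and unequal, 456 and 312 bp with vehicle and 513 and 479 bp with activin. The third Per1 region (chr11:69099724-69100346) had densities of 5.39 and 6.02 with vehicle, against 5.67 and 4.62 with activin. The common part of its intervals was 41.4% of their union, so it was outside the 10 tested regions. In a fit over the 28977 autosomal regions called in all 4 libraries, with no minimum common part, its log2 change was −0.32 ± 0.15 (limma, adjusted p = 0.542). That fit called 0 of 28977 (0%), and 9.4% of its regions had an unadjusted p under 0.05. It is centred on its own median region, which raised the log2 changes of the 13871 shared regions by a median of 0.11, so its values are not on the scale of the test above. In it 10 of the 16 clock gene regions were above 0 (Cry1 at 0.00), against 53.2% of all, and 5 of the 6 regions it added were below 0.

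Per2, whose protein scaffolds the repressor complex, had start-site densities of 7.10 and 4.10 with vehicle, against 5.64 and 5.01 with activin (chr1:91457971-91459948). The vehicle libraries bracket the activin libraries, and the interval was 706 bp long in vehicle library 1 and 1539 to 1918 bp in the others. In the fit with no minimum common part its log2 change was −0.19 ± 0.20 (limma, adjusted p = 0.762). Per3, which is dispensable for the rhythm itself, had the highest log2 change of the 10 tested regions (chr4:151044146-151045430). Its densities were 4.09 and 3.01 with vehicle, against 5.88 and 4.37 with activin, or 3.55 ± 0.759 and 5.13 ± 1.07 (SD, n = 2). Both activin libraries were above both vehicle libraries before centring, and the groups overlapped after it. The log2 change was 0.26 ± 0.14 (limma, adjusted p = 0.581). It was 0.08 without activin library 1, 0.43 without activin library 2, 0.39 without vehicle library 1 and 0.12 without vehicle library 2. With scaling to all high-quality reads it was 0.53 (limma, adjusted p = 0.0479), the one setting tried in which a clock gene region was called.

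The cryptochrome genes, whose proteins hold CLOCK and ARNTL inactive, did not pass the test. Cry2 (chr2:92433614-92434613) had densities of 5.29 and 4.57 with vehicle, against 6.72 and 6.08 with activin, with no overlap. Its −log10 q was 22.9 and 24.8 with vehicle, against 52.2 and 40.0 with activin. The log2 change of density was 0.10 ± 0.09 (limma, adjusted p = 0.733). At Cry1 (chr10:85183807-85185633), where the values given above overlap, it was −0.10 ± 0.17 (limma, adjusted p = 0.875). The sign at Cry1 turned without vehicle library 2 (0.11), in which the interval was 987 bp against 1713 to 1827 bp, and also without length division (0.20) and with scaling to all reads (0.17). The log2 change was −0.32 without vehicle library 1.

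The REV-ERB genes did not pass either. At Nr1d2 (chr14:18238177-18239603) means of 11.7 ± 1.36 with vehicle and 14.6 ± 1.04 with activin (SD, n = 2) came to a log2 change of 0.06 ± 0.11 relative to the median region (limma, adjusted p = 0.901). It was −0.05 without length division and −0.02 with a common part of at least 75%, and it ranged from 0.02 (without vehicle library 2 or activin library 1) to 0.09 (without vehicle library 1 or activin library 2). The 4 intervals matched better there than at any other clock gene, with a common part of 94.3%. At Nr1d1 (chr11:98773728-98776153) densities were 5.27 and 4.96 with vehicle, against 4.88 and 5.24 with activin, the narrowest range among the start sites. This region was called as 2 peaks in 3 libraries and as 1 peak of 2237 bp in activin library 1. Where it was split, the part in intron 1 was denser (6.21, 5.58 and 6.99 in vehicle libraries 1 and 2 and activin library 2) than the part over the start site (4.59, 4.40 and 4.13). In the fit with no minimum common part the log2 change of the whole was −0.19 ± 0.11 (limma, adjusted p = 0.593). The called length it divides by was 1236 and 1428 bp with vehicle, against 2237 and 1813 bp with activin.

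Upstream of Nr1d1 were 2 weaker intergenic regions called in all 4 libraries. The nearer, at −8.21 kb from the start (chr11:98783303-98783878), had a −log10 q of 1.72 to 2.35. The farther, at −11.1 kb (chr11:98785782-98787207), reached 3.70 and 4.99 with vehicle, against 4.72 and 5.75 with activin. Densities at the farther region were 3.30 and 3.09 with vehicle, against 2.26 and 3.60 with activin, so the groups overlapped.

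Dbp, an output gene of the loop, had the longest open stretch (chr7:45703981-45707857). Its start-site densities were 6.34 and 4.84 with vehicle, against 5.56 and 5.34 with activin. The stretch was called as 3 peaks in each vehicle library, 2 in activin library 2 and 1 peak of 3786 bp in activin library 1. In the fit with no minimum common part the log2 change was −0.19 ± 0.11 (limma, adjusted p = 0.599). Its densities divide by a called length of 1920 and 2694 bp with vehicle, against 3786 and 3247 bp with activin. The groups were therefore not compared over the same bases.

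A further region that carried the name Dbp lay 7.31 kb past its start (chr7:45712193-45712924), in exon 3 of 6 of the gene ENSMUSG00000057342, which the lists name Sphk2. It was the second most open clock-annotated region, with densities of 5.86 and 6.37 with vehicle, against 8.40 and 8.94 with activin. The groups were apart in density, with means of 6.12 ± 0.356 and 8.67 ± 0.381 (SD, n = 2), and in −log10 q, which was 11.8 and 14.1 with vehicle, against 35.9 and 22.7 with activin. Even so, relative to the median region the log2 change was 0.23 ± 0.12 (limma, adjusted p = 0.569). It was 0.08 without vehicle library 1, 0.15 without activin library 2 and 0.38 without vehicle library 2. Without division by the interval length, which was 732 and 578 bp with vehicle and 656 and 494 bp with activin, the log2 change was −0.11.

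**Figure D2:**
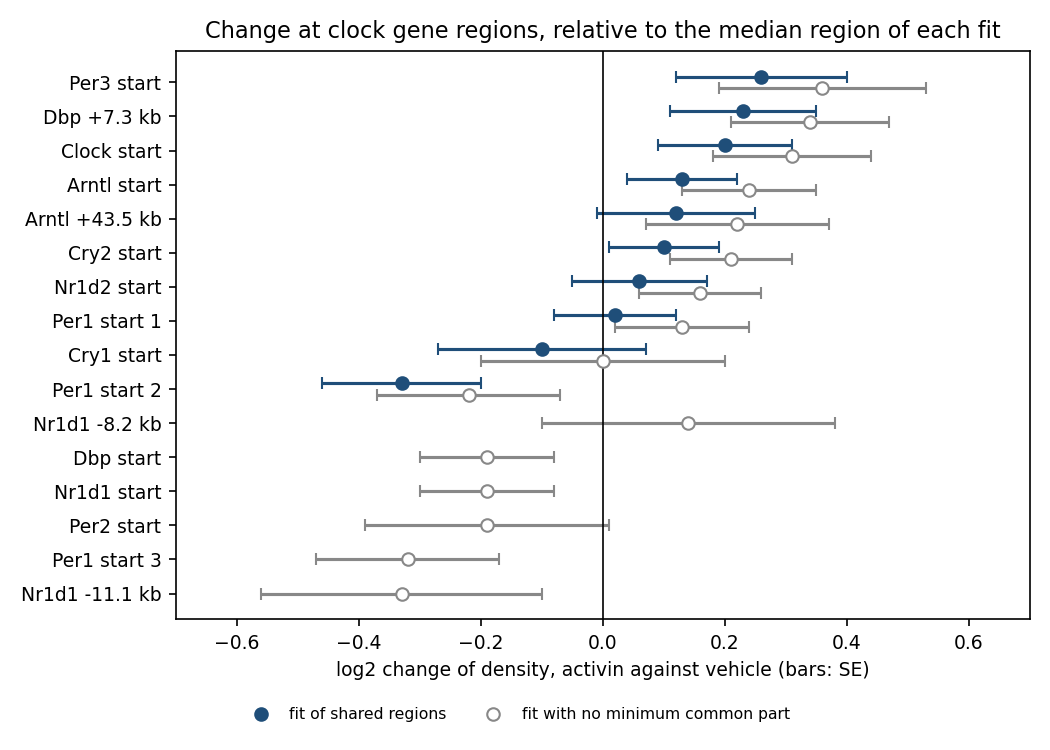
Log2 change of density, activin against vehicle, at the 16 clock gene regions called in all 4 libraries; points are limma estimates and bars are 1 SE on each side. Filled points are the fit of shared regions (10 regions, from −0.33 to 0.26) and open points the fit with no minimum common part (16 regions), each centred on its own median region, so that open points lie about 0.11 to the right where both are drawn.

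**Figure D3:**
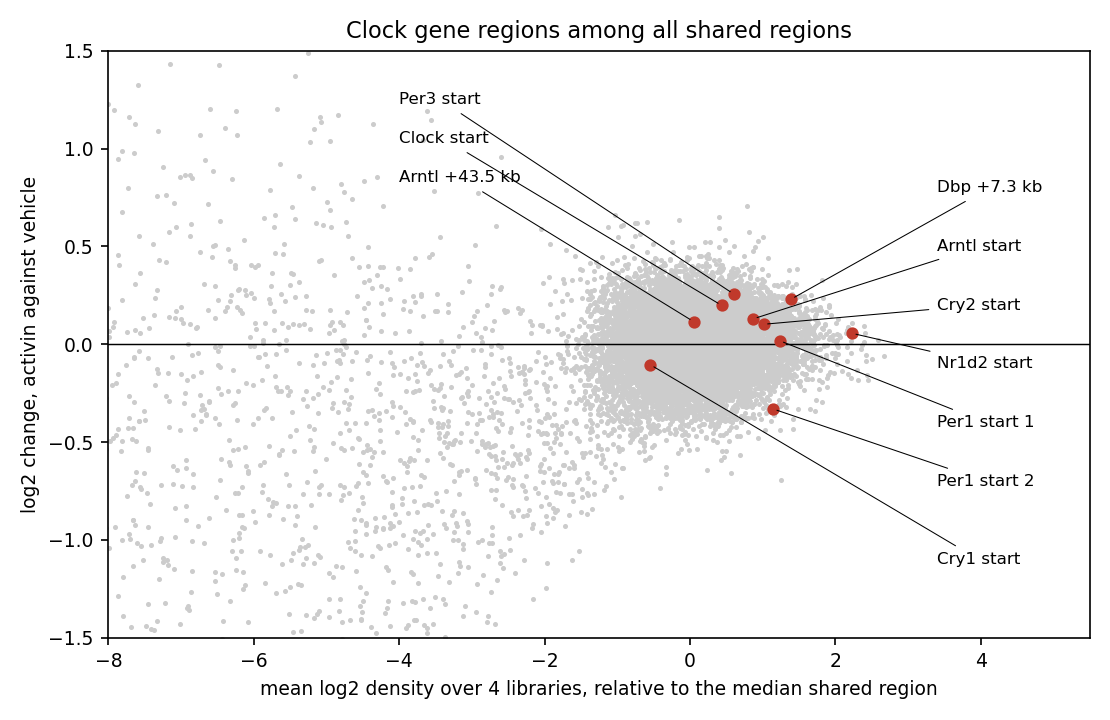
Log2 change of density against mean log2 density for the 13871 shared regions (grey; 306 lie outside the drawn range), with the 10 tested clock gene regions in red. The clock gene regions lie within the main cloud, with Nr1d2 toward its right edge and the second Per1 region below 0.

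The authors' promoter label gave a different picture of the same start sites. A peak labelled as promoter was found in all 4 libraries for 3 of the 10 genes (Clock, Per1 and Cry2), against 19.6% of the 35667 gene names. Yet all 10 had a start-site region in all 4 libraries, and over the genome only 44.9% of the 9153 genes with such a region also had the label in all 4. At clock genes the label changed with the extent of the interval. At Arntl it was exon or intron in both vehicle libraries and promoter in both activin libraries, although the interval covered the start site in all 4. At Per2 only the short interval of vehicle library 1 was labelled promoter, and at Cry1 only that of vehicle library 2. Nr1d2, the most open of all, was never labelled promoter.

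At Per3 the gene name moved as well: in vehicle library 2 and both activin libraries the start-site peak was named Vamp3, so the name Per3 was absent from the list of activin library 2. Counts of promoter-labelled clock peaks were 11 and 10 with vehicle, against 6 and 9 with activin. The label separated the groups at the Arntl start. Its density also did so, before and after centring, though limma did not call it.

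**Figure D4:**
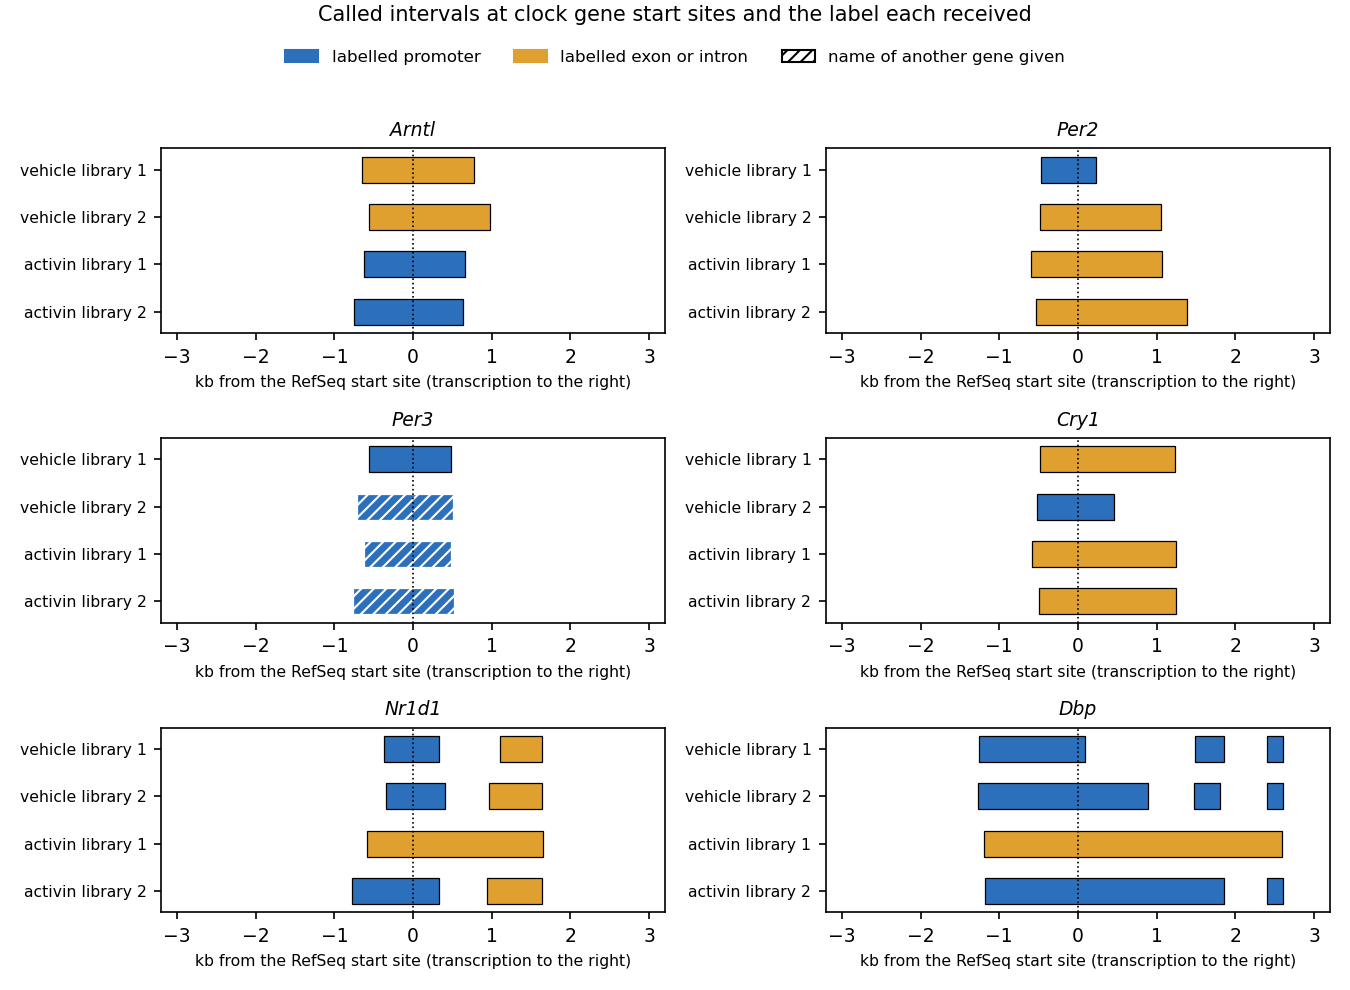
Called intervals around the start sites of 6 clock genes in each library, in kb from a RefSeq start site with transcription to the right; colour gives the authors' label and hatching marks peaks given the name of another gene. The Arntl intervals cover the start in all 4 libraries but are labelled promoter only with activin, the Per3 peak has another gene's name in 3 libraries, and the Nr1d1 and Dbp peaks are joined in activin library 1.

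Away from the start sites, 32 of the 43 clock gene regions were called in a single library, and they held 32 of the 66 peaks there. The share of single-library regions over the genome is not given, so this count is no result about clock genes. The lists held 23 and 44 clock gene peaks with vehicle, against 25 and 27 with activin, or 33.5 ± 14.8 and 26 ± 1.41 (SD, n = 2). As a share of each whole list the direction was the opposite: 0.0276% and 0.0247% with vehicle, against 0.0294% and 0.0382% with activin. The shares were not tested. The difference of −7.5 peaks did not pass (exact permutation p = 1, 2-sided, where 2 against 2 libraries cannot go below 0.333). Vehicle library 2 decided its sign: without it the difference was 3. With only the 70692 strongest peaks of each library it was 0.5. Clock gene peaks that reached a −log10 q of 5 numbered 15 and 15 with vehicle, against 13 and 16 with activin.

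Of the 55 regions, 16 were called in all 4 libraries, against 11.7% of all merged regions, and 32 in 1 library only, of which 20 were in vehicle library 2. That library also held 178358 of the 417506 peaks in the lists. Among the 39 regions missing from at least 1 library, the median of the highest −log10 q was 1.39, and 32 stayed under 2. Arntl had the most peaks in such regions, with 9 in vehicle library 2, 1 in vehicle library 1 and 3 in each activin library. Clock and Dbp had none.

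A single region of the 55 was called in both activin libraries and in no vehicle library, a pattern found at 1.35% of all merged regions. It lay in Arntl, 48.7 kb past the start (chr7:113256029-113256372), with a −log10 q of 3.83 and 2.41 and densities of 3.22 and 1.77. Another single region was called in both vehicle libraries only, as were 4.86% of all merged regions. It was in intron 6 of 22 of Per2 (chr1:91442215-91442447), with a −log10 q of 2.16 and 5.32. It held 12 and 22 high-quality reads, at densities of 0.408 and 0.427, and was the only one of the 39 to reach a −log10 q of 5. An intron 4 region of Per2 (chr1:91446072-91446701) and an intergenic region at −36.4 kb from the Cry1 start (chr10:85221049-85221909) were each called in every library but vehicle library 1. Their −log10 q did not exceed 4.33.

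Most other genes of the clock pathway with a listed start site also had it under a region called in all 4 libraries. Of 18 listed genes, 13 had a start site in the RefSeq table. For 12 of these a region called in all 4 libraries covered it, and Arntl2, a paralogue of Arntl, had none in any library. In the test, 4 of 9 regions had a higher density relative to the median with activin and 5 a lower one, with a median log2 change of −0.01, and limma called 0. The most open was Tef, which encodes a D-box factor related to DBP (second region, chr15:81810193-81812147). Its densities were 5.84 and 5.54 with vehicle, against 7.59 and 7.53 with activin, with a log2 change of 0.14 ± 0.09 (limma, adjusted p = 0.659). The least open was Nfil3, which encodes a repressor at D-boxes, with 2.39 and 1.46 against 2.27 and 2.07. Ciart, which encodes a repressor of CLOCK and ARNTL, was the 1 region with an unadjusted p under 0.05, in the higher direction, as were 3.62% of all shared regions. Its densities were 3.56 and 2.86 with vehicle, against 4.90 and 4.37 with activin, with a log2 change of 0.26 ± 0.10 (limma, adjusted p = 0.487).

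The start-site regions most like each clock gene's were named from the Euclidean distance of centred log2 density over the 4 libraries, among the 6436 shared start-site regions. Cry2 was closest to Pdpk1 (distance 0.0324), Per1 to Lmln (0.055), Arntl to Uevld (0.0607), Nr1d2 to Zbtb22 (0.0704), Clock to Lyst (0.0713), Per3 to Nipsnap3b (0.0995) and Cry1 to Lrp10 (0.117). None of these 7 is a clock gene of either list.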

How the data were processed

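Accessibility was measured in 2 vehicle and 2 activin libraries, grouped by the sample titles. Reads were aligned with Bowtie2, peaks called per library with MACS2 and annotated with HOMER on GRCm38 (mm10), per the submitters' processing notes, without versions. The deposited broad-peak lists hold a score, a fold (ratio over background), and −log10 p and −log10 q per peak, the lowest −log10 q being 1. The score and fold are the authors' values and were not tested. High-quality read numbers per autosomal peak came from the deposited ataqv 1.3.1 reports, per the file headers. The authors called peaks in each library alone, so a missing peak depends on depth and background.

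Peaks overlapping by at least 1 bp were merged. Start sites came from RefSeq (GRCm38.p6); that of Per2, which had no entry in the promoter table, is the gene's 5′ end in the gene table. For the 13871 shared regions (exactly 1 peak per library, common part at least 50% of the union), log2((reads + 1) per kb), centred on each library's median, was fitted with limma 3.58.1 in R 4.3.3 (trended eBayes, without a block). Fold changes are on that scale, which understates changes of regions with few reads. In simulated data over 13871 regions, for the comparison of activin with vehicle, the fit called 175 of 200 regions given a log2 change of 1. The noise had an SD of 0.15 (log2), and the fit also called 5 unchanged regions. Changes as small as those at clock genes were not simulated, so the power to call them is not known. The members, gene lists and tests were chosen with earlier results of these data known. Named regions were all start-site regions of the 10 genes and other regions called in all 4 libraries or reaching a −log10 q of 5; the regions called in 2 or 3 libraries were picked after their values were seen.

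Alternatives changed the scaling, the length division, the pseudocount, a minimum of reads, the common part, the block, the peak threshold and the libraries. Reads are not independent molecules.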

Additional observations from a re-analysis of the deposited data

How the results depend on the processing

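The count of 0 regions called over the genome became 605 with scaling to all high-quality reads, 39 without division by interval length, 1 with a pseudocount of 10, 2 with a common part of at least 75%, and 0 to 9 with 1 library left out. The median log2 change of the clock gene regions (0.11) was 0.38 with scaling to all reads and 0.01 without length division, and 0.07 to 0.11 with 1 library left out. Interval lengths differed between libraries by over 1.5 times at 6 of the 12 start-site regions. The number of genes with a promoter peak in all 4 libraries (3) was 5 with peaks centred within 1 kb of the annotated start, 10 with regions over a RefSeq start site (an alternative chosen after seeing the data), and 3 to 5 with 1 library left out. Regions in all 4 libraries with no promoter label (5) numbered 3 at a −log10 q of at least 5, 3 with a common part of at least 50%, and 5 to 8 with 1 library left out. The difference in clock gene peaks (−7.5) was 0.5 with equal numbers of peaks and −18 to 3 with 1 library left out.

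Of 104 values for single clock gene regions under these alternatives, 92 kept their sign and side of the threshold, 11 changed sign and 1 passed the threshold (Per3, 0.53 with scaling to all reads). Without length division the log2 change was −0.17 at the Arntl start, −0.01 at its intron region, −0.05 at Nr1d2, −0.11 at the Dbp region in Sphk2 and 0.20 at Cry1. Cry1 was 0.17 with scaling to all reads. With 1 library left out, Cry1 ranged from −0.32 to 0.11 (without vehicle library 2), the first Per1 region from −0.08 (without vehicle library 2; −0.03 without activin library 2) to 0.12, and the Arntl intron region from −0.03 (without activin library 2) to 0.27. Nr1d2 was −0.02 with a common part of at least 75%. The cause of these changes was not tested.

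With the replicate number as a block, limma called 4 regions in place of 0, none at a clock gene, and the median over the clock gene regions stayed 0.11. Libraries with the same number did not deviate together (r = −0.0252 across 13871 regions, which are not independent), and the labels do not say what they share. With 2 libraries per group an exact permutation test cannot go below 0.333.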
